A study of Mus musculus with 8 samples.

Results

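Immediate early genes are the genes a cell transcribes within minutes of a stimulus, before any new protein is needed for it. Here 10 of them, *Fos*, *Fosb*, *Jun*, *Junb*, *Egr1*, *Egr2*, *Atf3*, *Ier2*, *Nr4a1* and *Dusp1*, were chosen by their symbols and followed through poly(A) RNA-seq of mouse brown adipose tissue (BAT). They are 10 of the 33641 genes in the deposited tables, and all 10 were among the 14851 genes with enough counts to be tested. RNA came from interscapular BAT of 8 C57BL/6 mice aged 28 weeks, 1 library per mouse. The 5 *Adipo-HuR-/-* mice carried a floxed gene for the RNA binding protein HuR (*Elavl1*) together with Cre recombinase driven by the adiponectin promoter, which acts in adipocytes and leaves HuR in the other cells of the tissue. The 3 control mice were littermates, which in this study could be wild type with Cre or carry 1 or 2 floxed alleles without it. Mice were sedated with isoflurane, bled and killed before tissue was taken, and sex, diet and hour of collection of these 8 mice were not given in the sources used here. Control libraries are A7, A8 and A12, and libraries labelled *Adipo-HuR-/-* are A24, A25, A26, A29 and A31.

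Signals that raise calcium, cAMP or MAP kinase activity act on transcription factors that already sit at the promoters of these genes, mainly CREB and SRF with its ELK partners, so that transcripts appear quickly and, because most of them are unstable, disappear quickly. The proteins of the Fos and Jun families pair to form AP-1, the Egr proteins are zinc finger factors, *Nr4a1* is an orphan nuclear receptor and *Dusp1* a phosphatase that switches MAP kinases off. In BAT the adrenergic signal that starts thermogenesis induces several of them, and handling, ischaemia or dissection of a tissue can induce them as well. HuR is known to bind AU-rich stretches in the 3ʹUTRs of many such short-lived transcripts, which is the reason to ask how they stood after its deletion.

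On the mouse genome build GRCm38, in the GENCODE M21 annotation, the 10 genes are protein coding and lie on 9 chromosomes. *Fos* is at chr12:85473890-85477273 on the plus strand, *Fosb* at chr7:19302696-19310051 on the minus strand, *Jun* at chr4:95049034-95052222 (minus) and *Junb* at chr8:84974484-84978718 (minus). *Egr1* is at chr18:34859823-34864984 (plus), *Egr2* at chr10:67535475-67542188 (plus) and *Atf3* at chr1:191170296-191218039 (minus). *Ier2* is at chr8:84661331-84662852 (minus), *Nr4a1* at chr15:101254269-101274795 (plus) and *Dusp1* at chr17:26505590-26562128 (minus). Genes on the opposite strand overlap 4 of them, *Junos* at *Jun*, *Prdx2* at *Junb*, the small RNA gene *Gm24748* at *Atf3*, and *Ergic1* and the pseudogene *Gm8225* at *Dusp1*. Whether counting used the strand was not given in the sources used here, so reads of such a pair cannot be told apart, and the values of these 4 genes carry that uncertainty.

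The targeted transcript was measured first. *Elavl1* stood at 50.6 CPM (counts scaled to library size and normalized between libraries) in A7, 48.0 (A8) and 49.2 (A12), and at 61.9 (A24), 47.3 (A25), 43.4 (A26), 61.3 (A29) and 61.2 (A31). The groups overlapped and the total of *Elavl1* was not lower after deletion (log2 fold change 0.16 ± 0.16 SE, adjusted p = 0.667). Counts per exon were not analysed, so this total cannot show whether the floxed part was lost. *Ccl25* also overlaps *Elavl1* on the opposite strand. Each library goes by its label throughout. The study's own account gives the sizes of the groups the other way round from these labels, and an exchange of labels would turn every direction given here. By these labels, 69 of the 105 genes called in the main test below were lower in *Adipo-HuR-/-* libraries and 36 higher. The study describes most of its changed genes as decreased in *Adipo-HuR-/-* mice. Whether labels were exchanged was not tested. Total counts were 60622522 (A7), 51751002 (A8), 50673814 (A12), 18264754 (A24), 17558090 (A25), 67498055 (A26), 50893173 (A29) and 58727739 (A31), A24 and A25 being the shallowest. The brown adipocyte transcript *Ucp1* was abundant in every library, from 4251 CPM in A25 to 11438 CPM in A8. As these are bulk samples, fewer cells of a type and less RNA per cell cannot be told apart.

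None of the 10 genes passed the test between the groups. With edgeR's quasi-likelihood test, 0 of 10 were called at an adjusted p of at most 0.05 and a fold change of at least 1.5, against 105 of all 14851 genes (0.707%). At an unadjusted p under 0.05 the count was again 0 of 10, against 17% of all genes (2 of 10 without A7, 1 without A24 and 0 without any other library), and the groups overlapped for each of the 10, whereas they did not for 11.5% of all genes. These shares of all genes are for all 8 libraries, and none is given for fewer. DESeq2's Wald test called 0 of the 8 to which it gave an adjusted p, all but *Fos* and *Fosb* (5.54% of all genes), limma voom 0 (1.06%) and edgeR's likelihood ratio test 0 (4.41%). The adjusted p of the 10 lay between 0.434 (*Ier2*) and 0.991 (*Atf3*), and two-sided exact permutation tests of the CPM gave p between 0.214 and 1, where 0.0179 is the smallest that 3 against 5 libraries allow. Log2 fold changes were positive for 8 genes and negative for 2, with a median of 0.23 beside 0.00 over all genes tested. The median moved with single libraries: without A24 it was −0.43 and 4 of the 10 fold changes were positive, whereas without A7 it was 0.93. Without both, a choice made after seeing the data, it was 0.44 and 7 of the 10 were positive.

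**Figure D1:**
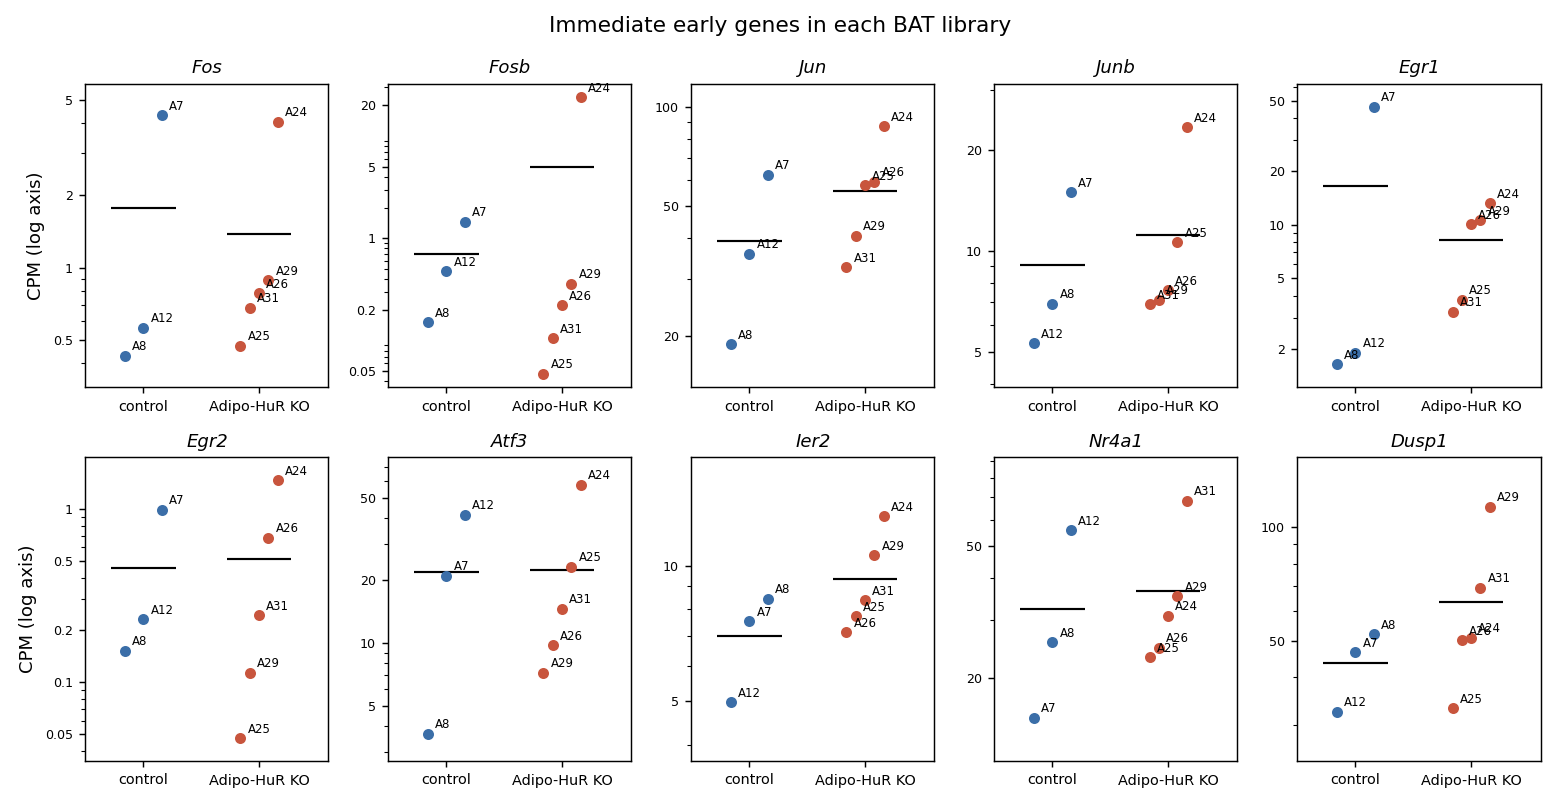
CPM of each gene (log axis) in the 3 control libraries (blue) and the 5 libraries labelled *Adipo-HuR-/-* (red), with each point named by its library and the mean of the group as a line. A24 is the highest point for 6 genes and A7 for *Fos* and *Egr1*, while the range of the controls overlaps that of the other group in every panel.

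Of the AP-1 genes, *Fos* encodes the partner that binds DNA only together with a Jun protein and is usually close to absent in resting tissue. It was at 4.32 CPM in A7, 0.430 (A8) and 0.564 (A12), and at 4.06 (A24), 0.474 (A25), 0.785 (A26), 0.890 (A29) and 0.682 (A31). A single library of each group was thus high, A7 and A24, and the remaining 6 libraries lay below 1 CPM whatever their label. The log2 fold change of *Fos* was −0.44 ± 0.86 (SE, n = 3 and 5; adjusted p = 0.838), and it was 1.41 without A7 and −1.32 without A24.

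*Fosb*, the Fos paralogue that in neurons accumulates with repeated stimulation, had the widest range. It reached 24.2 CPM in A24, on 429 counts, against 0.0474 (A25), 0.222 (A26), 0.360 (A29) and 0.106 (A31), on 1 to 19 counts each. Controls were at 1.46 CPM in A7, 0.152 (A8) and 0.481 (A12). A24 was 109-fold above the median of its group, and A7 was again the highest control. The fitted log2 fold change of 2.75 ± 1.85 (adjusted p = 0.495) rested on A24, as it was −1.86 (adjusted p = 0.248) without it.

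*Jun*, which can pair with itself as well as with Fos proteins, was the most abundant of these 4 AP-1 transcripts per length and varied less than *Fos* and *Fosb*. Its CPM was 62.3 (A7), 18.9 (A8), 35.8 (A12), 87.3 (A24), 57.8 (A25), 59.1 (A26), 40.5 (A29) and 32.5 (A31). A24 was highest and A8 lowest, with a 4.62-fold range, and A7 lay above 4 of the 5 libraries of the other group. *Jun* kept a positive log2 fold change in every alternative tried, with 0.51 ± 0.39 (adjusted p = 0.561) over all libraries. *Junb*, a weaker activator that can restrain *Jun*, was at 14.9, 6.94 and 5.29 CPM in A7, A8 and A12 and at 23.3, 10.6, 7.62, 7.14 and 6.91 CPM in A24, A25, A26, A29 and A31. As for *Fos*, the highest library of each group was A7 and A24, and the other 6 lay within 5.29 and 10.6 CPM. Its log2 fold change of 0.28 ± 0.46 (adjusted p = 0.808) became −0.18 without A24.

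*Egr1*, the zinc finger factor induced by growth factors and by mechanical and hypoxic stress, showed the largest range among controls. It stood at 46.3 CPM in A7, on 2860 counts, against 1.65 (A8) and 1.90 (A12). Libraries labelled *Adipo-HuR-/-* were at 13.3 CPM in A24, 3.80 (A25), 10.1 (A26), 10.6 (A29) and 3.24 (A31). All 5 of these lay above A8 and A12 and below A7, which was 28.1-fold above A8. The log2 fold change was −1.03 ± 0.93 (adjusted p = 0.624) with all 8 libraries and 2.20 (adjusted p = 0.172) without A7, when the groups no longer overlapped, so that 1 control decided its direction. Among the 500 tested genes nearest to it in mean level, 100% had a smaller SD within groups. *Egr2*, best known from Schwann cells and lymphocytes, was at the limit of detection with 1 to 61 counts per library. It was highest in A24 (1.47 CPM) and A7 (0.988 CPM), at 0.682 CPM in A26, and between 0.0474 and 0.242 CPM in the other 5 libraries. Its log2 fold change was 0.05 ± 0.94 (adjusted p = 0.984).

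*Atf3*, a stress-induced factor of the CREB family, divided the controls in another way. It was at 21.03 CPM in A7, 3.67 (A8) and 41.4 (A12), and at 57.8 (A24), 23.3 (A25), 9.78 (A26), 7.20 (A29) and 14.6 (A31). A24 was highest once more, but A12, low for *Fos* and *Egr1*, came next, and A8 was lowest. The group means were nearly equal, 22.0 ± 18.9 CPM in control and 22.5 ± 20.6 CPM in *Adipo-HuR-/-* libraries (SD), and the log2 fold change of 0.02 ± 0.76 (adjusted p = 0.991) became −0.69 without A24 and 0.85 without A12. *Ier2*, a small nuclear protein of the early response, was the steadiest of the 10, with 7.53, 8.46 and 4.97 CPM in A7, A8 and A12 and 12.9, 7.73, 7.13, 10.6 and 8.38 CPM in A24, A25, A26, A29 and A31. A12 was the lowest library and A24 the highest, a 2.60-fold range, and the ranges of the groups overlapped between 7.13 and 8.46 CPM. Its log2 fold change was 0.42 ± 0.25 (adjusted p = 0.434) and positive in every alternative.

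*Nr4a1* (Nur77), which in BAT is induced by adrenergic signalling, did not follow A7 and A24. Its CPM was 15.2 (A7), 25.7 (A8) and 55.7 (A12), and 30.8 (A24), 23.2 (A25), 24.7 (A26), 35.3 (A29) and 68.4 (A31). The high libraries were here A31 and A12, and A7, the highest for *Fos*, was the lowest. Its log2 fold change was 0.18 ± 0.44 (adjusted p = 0.874), and −0.18 without A31. *Dusp1*, the MAP kinase phosphatase, was highest in yet another library, at 113 CPM in A29, followed by 69.1 (A31), 50.9 (A24), 50.2 (A26) and 33.2 (A25), with 46.6, 52.1 and 32.4 CPM in A7, A8 and A12. The groups overlapped, A12 being the lowest library of all. Its mean was 43.7 ± 10.1 CPM in control and 63.3 ± 30.7 CPM in *Adipo-HuR-/-* libraries (SD), and the log2 fold change of 0.54 ± 0.35 (adjusted p = 0.478) was 0.21 without A29.

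**Figure D2:**
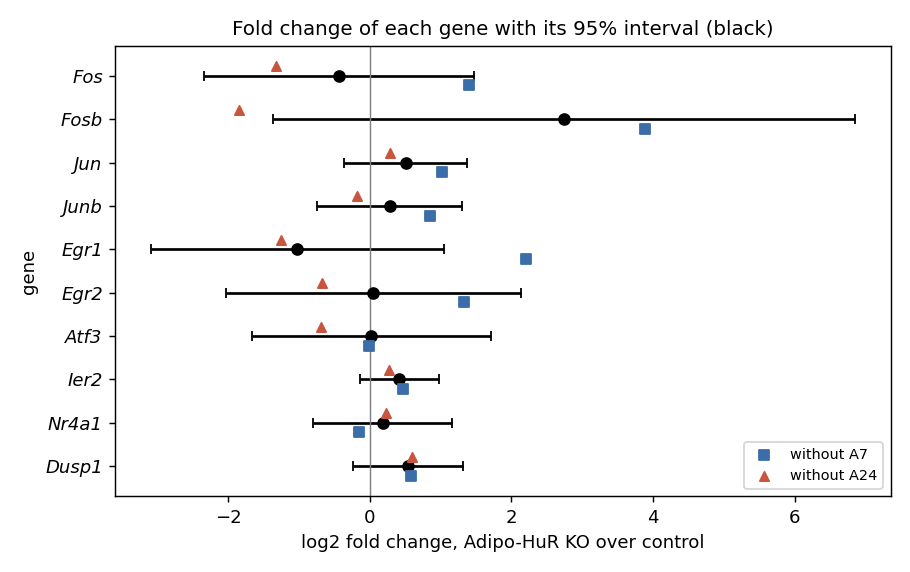
Log2 fold change of each gene, *Adipo-HuR-/-* over control, with its 95% interval (black points and bars, n = 3 and 5), and the same value without A7 (blue squares) or without A24 (red triangles). Every interval includes 0, and *Egr1* moves from −1.03 to 2.20 without A7 and *Fosb* from 2.75 to −1.86 without A24.

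Levels of different genes were compared as TPM, which takes transcript length into account. The order of the medians over 8 libraries was *Dusp1* (35.3 TPM), *Jun* (21.9), *Atf3* (18.1), *Nr4a1* (15.7), *Ier2* (8.30), *Junb* (5.91), *Egr1* (3.36), *Fos* (0.740), *Egr2* (0.274) and *Fosb* (0.112). *Dusp1* lay above 85.3% of the genes tested and *Fosb* above 4.69%. Neighbours in this order overlapped over the libraries; the TPM of *Jun* ran from 5.45 to 32.9 and that of *Atf3* from 1.76 to 35.4, and *Egr1*, with 0.491 to 24.6 TPM, covered the whole range of *Junb* and *Ier2*. The median SD of log2 CPM within groups was 1.07 over the 10 genes, from 0.37 for *Ier2* to 2.76 for *Fosb*, beside 0.35 over all genes. Of the 500 genes nearest in mean level, 69% had a smaller SD than *Ier2*, and the share was 95.2% or more for each of the other 9.

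Taking the mean log2 CPM of the 10 genes as a score, A24 had 4.21 and A7 3.49, and the other libraries lay between 1.74 (A8) and 2.59 (A26), with 2.35 (A12), 2.04 (A25), 2.57 (A29) and 2.37 (A31). The 2 high libraries thus had different labels, and the scores averaged 2.53 ± 0.89 in control and 2.76 ± 0.84 in *Adipo-HuR-/-* libraries (SD, n = 3 and 5). A24 was the highest library for 6 of the 10 genes and among the 3 highest for 8, whereas A7 was highest for 2 and among the 3 highest for 6. A8 was the lowest library for 4 genes and A12 for 3. Over the 8 libraries, 33 of the 45 pairs of genes had a positive Pearson r of log2 CPM, with a median of 0.45. Of the 28 pairs without *Nr4a1* and *Dusp1*, 27 were positive (median r = 0.61), whereas 6 of the 17 pairs with them were, these 2 genes being set apart after their values were seen. Without A7 and A24 this contrast was gone, with a median r of 0.12 for the 28 pairs and 0.16 for the 17. The closest pair was *Fos* and *Egr1*, with r = 0.85 and Spearman's rho = 0.93, and r = 0.84 with A7 and A24 left out. The median over all 45 pairs fell to 0.14 when A7 and A24 were left out, an alternative chosen after seeing the data, so that the shared variation rested mainly on these libraries.

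Outside the list, the 10 genes of at least 5 CPM whose log2 CPM followed the score most closely over the 8 libraries were *Fxyd5* (Pearson r = 0.95), *Ugdh* (0.94), *Pvr* (0.94), *Mcam* (0.92), *Jak2* (0.92), *Tpm4* (0.92), *Emp1* (0.91), *Itpk1* (0.91), *Lgals3* (0.90) and *Ubald1* (0.89), out of 9131 candidates. Spearman's rho of these 10 lay between 0.76 and 0.98, and r without A7 and A24 between 0.51 (*Ubald1*) and 0.89 (*Itpk1*). *Emp1*, a membrane protein, was at 30.2 CPM in A7 and 38.6 CPM in A24, against 6.79 to 20.9 CPM in the other 6 libraries. *Lgals3*, which encodes galectin-3, was at 26.1 CPM in A7 and 25.5 CPM in A24, against 5.65 to 12.8 CPM elsewhere. As the score was high in A7 and A24, which have different labels, genes picked for following it had little room to differ between the groups. Their adjusted p in edgeR's test lay between 0.727 and 0.987. Of the other immediate early genes of at least 5 CPM, *Zfp36* was the closest to the score, with r = 0.87 and rank 19.

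A wider list of 48 other immediate early genes was taken for comparison, of which 45 were tested; *Egr4*, *Npas4* and *Ptgs2* had too few counts. In edgeR's test 0 of the 45 were called, 9 (20%, against 17% of all genes) had an unadjusted p under 0.05, 6 of them higher and 3 lower in *Adipo-HuR-/-* libraries, and the groups did not overlap for 2 (4.44%, against 11.5%). With 1 library left out the latter count ran from 2 to 9 (A7). Smaller groups overlap less readily, and the share of all genes is given only for the full set of libraries. DESeq2's Wald test called 2, *Dusp4* and *Dusp5* (5.54% of all genes), the likelihood ratio test 1, *Dusp4* (4.41% of all), and limma voom 0 (1.06% of all). *Dusp5* was also called with the endothelial score as a covariate, and *Klf4* without A12. The median log2 fold change was 0.17, and it ran from 0.0154 without A24 to 0.47 without A7. A24 was the highest library for 16 of the 45 and A7 for 11, and A24 was among the 3 highest for 36. A7 was also the lowest library for 10 of the 45, so that it was not as uniformly high here as A24. *Jund*, the Jun paralogue, was at 101 CPM in A24 and 79.7 CPM in A25 against 26.7 to 44.2 CPM elsewhere, and *Maff* reached 46.9 CPM in A7. Both were chosen after their values were seen.

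*Dusp4*, a nuclear MAP kinase phosphatase related to *Dusp1*, had the lowest adjusted p of that list. It was at 27.1 CPM in A7, 24.9 (A8) and 29.7 (A12), and at 71.7 (A24), 68.8 (A25), 93.8 (A26), 39.1 (A29) and 53.7 (A31). Each of the 5 libraries labelled *Adipo-HuR-/-* was above each control, with a log2 fold change of 1.26 ± 0.26 and an adjusted p of 0.0583. Besides the tests above, it was called with total counts, without a filter and with a filter of 10 counts, but not with DESeq2's size factors, limma voom, the highest transcript, any covariate or any library left out. Its log2 fold change lay between 1.07 and 1.48 throughout. *Dusp1* showed no such separation, and the difference between the 2 genes was not tested. *Nr4a3*, the relative of *Nr4a1*, had a log2 fold change of −1.67 ± 0.68 (adjusted p = 0.248). It was at 38.6 CPM in A12 and between 2.31 and 9.76 CPM in the other 7 libraries, and its log2 fold change was −0.17 without A12. *Ier5*, with 0.79 ± 0.41 (adjusted p = 0.364), was highest in A24 at 16.3 CPM and in A25 at 10.1 CPM. *Dusp4*, *Dusp5* and *Nr4a3* are also among genes the study picked from these libraries, so their differences are not independent of it.

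**Figure D3:**
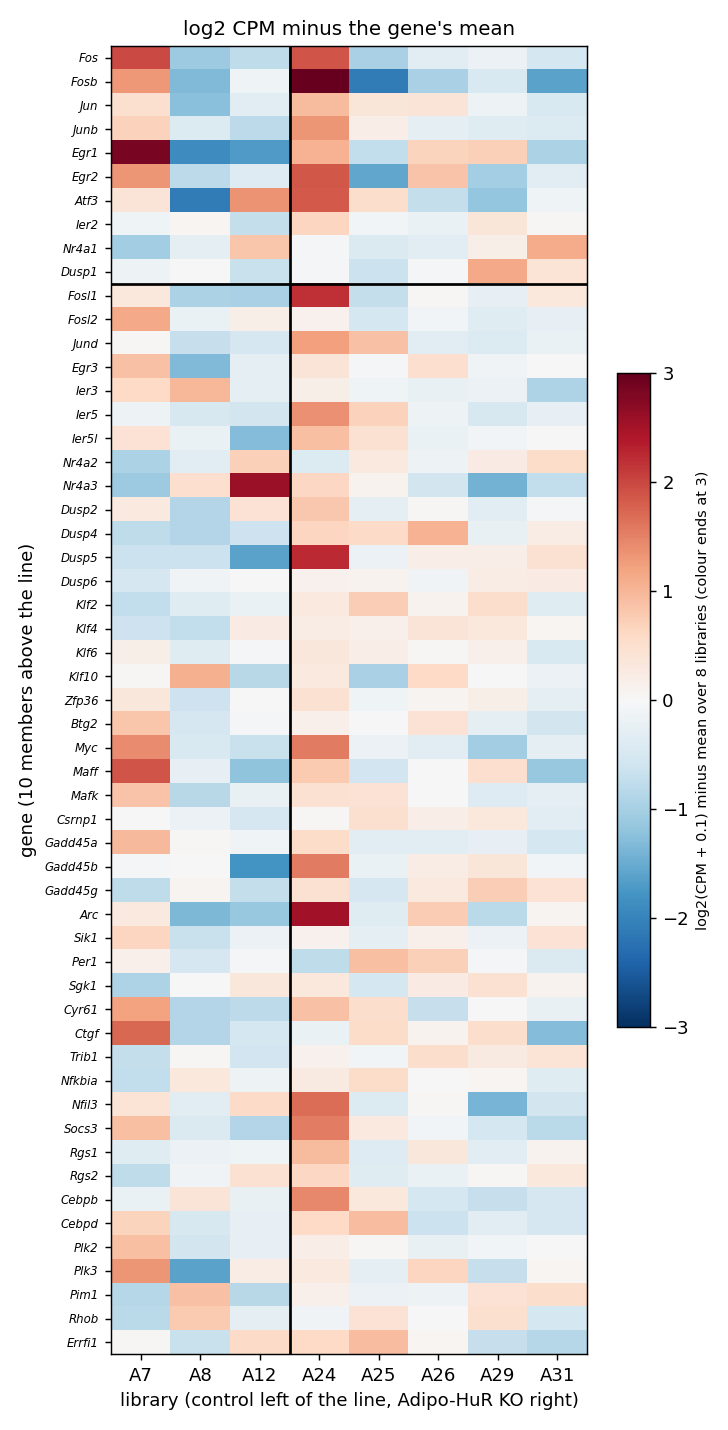
Log2 CPM of the 10 genes (above the line) and of the 45 other immediate early genes (below) in each library, each minus its mean over the 8 libraries (0.1 CPM added; red above, blue below the mean). The columns of A24 and A7 hold most of the dark red cells, *Nr4a1* and *Nr4a3* are high in A12, and *Dusp1* is high in A29.

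Genes that carry the signal to these promoters were looked at next. Of 25 upstream kinases and transcription factors (ERK, JNK, p38 and RSK kinases, SRF and its partners, CREB and its coactivators), 0 were called in edgeR's test, 5 (20%, against 17% of all genes) had an unadjusted p under 0.05 and the groups did not overlap for 4 (16%, against 11.5%). The largest differences were those of *Mapk14*, which encodes p38α, with a log2 fold change of 0.54 ± 0.18 (adjusted p = 0.158), *Mapk9* (JNK2) with −0.48 ± 0.13 (adjusted p = 0.106) and *Atf2* with −0.45 ± 0.17 (adjusted p = 0.204). Their mean log2 CPM lay between 4.35 (A8) and 4.58 (A12), with 4.50 (A7) and 4.44 (A24), so the libraries high in *Fos* were not apart in it. Of 11 genes that cAMP induces acutely in brown fat, 0 were called (0.707% of all genes). An unadjusted p under 0.05 was found for 1 (9.09%, against 17% of all genes), *Nr4a3*. *Dio2*, the deiodinase that makes active thyroid hormone in BAT, was at 384 CPM in A31 and 275 CPM in A12, the libraries highest in *Nr4a1*, against 63.8 to 206 CPM in the other 6. *Nr4a2* was also highest in A12 (25.5 CPM) and A31 (22.7 CPM). None of the remaining genes of the list had A12 and A31 as its highest libraries. In A31 *Ppargc1a* was at 84.0 CPM and *Nr4a3* at 3.74 CPM. A shared cause was not tested. Other named genes of that list were *Pde4d* (log2 fold change −0.38, adjusted p = 0.540) and *Per1* (0.32, adjusted p = 0.708).

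Glucocorticoid response genes rise in a mouse under stress or at the active phase. Of 11 of them, 0 were called (0.707% of all genes) and 0 had an unadjusted p under 0.05 (17% of all genes). *Fkbp5*, a sensitive target of the receptor, was at 15.3 CPM in A7, 5.75 (A8) and 7.36 (A12) and at 19.7, 29.1, 31.8, 5.04 and 5.76 CPM in A24, A25, A26, A29 and A31 (log2 fold change 0.94 ± 0.63, adjusted p = 0.486). It separated A24, A25 and A26 from A29 and A31, which is not the order of *Fos* or *Egr1*. The log2 fold change of *Fkbp5* was 0.10 with limma voom, and ran from 0.64 (A26) to 1.47 (A7) with 1 library left out. *Cdkn1a* was at 161 CPM in A24 and 36.5 to 72.9 CPM elsewhere (adjusted p = 0.532), and *Ddit4* had a log2 fold change of 0.60 (adjusted p = 0.535). Of 10 heat shock response genes, 0 were called, 3 (30%, against 17% of all genes) had an unadjusted p under 0.05 and the groups did not overlap for 1 (against 11.5%), *Hspb1*; their median log2 fold change was 0.57. *Hspa1a*, the inducible HSP70, was at 676 CPM in A24 and 1165 CPM in A25, at 40.5, 8.46 and 73.9 CPM in A7, A8 and A12, and at 96.7, 5.93 and 135 CPM in A26, A29 and A31 (log2 fold change 3.34 ± 1.37, adjusted p = 0.252). *Hspa1b*, a copy nearly identical in sequence, whose share of reads is uncertain, had 2.98 ± 1.36 (adjusted p = 0.299), and *Hspb1* 1.99 ± 0.49 (adjusted p = 0.0858), which was called by DESeq2 and the likelihood ratio test but in no other alternative. With limma voom the log2 fold change was 1.53 for *Hspa1a* and 1.08 for *Hspa1b*. A24 and A25 were thus both high in heat shock transcripts and both the shallowest libraries. *Fos*, *Fosb* and *Egr2*, high in A24, were at 0.474, 0.0474 and 0.0474 CPM in A25, on 10, 1 and 1 counts. Of the 10 genes, only *Junb* (10.6 CPM) and *Atf3* (23.3 CPM) were second highest in A25 within its group. The part of heat shock or depth in the results was not tested. With log10 total count as a covariate the log2 fold change was −1.39 for *Fosb* and −0.87 for *Atf3*, and no gene of the 10 was called. *Hspb1*, *Hspa1a* and *Hspa1b* were also picked by the study from these libraries.

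Of 8 proteins that bind AU-rich elements, HuR among them, 0 were called in edgeR's test (0.707% of all genes) and 0 had an unadjusted p under 0.05 (17% of all genes). The destabilizing factor *Zfp36* (tristetraprolin), itself an immediate early gene, was at 22.6, 11.6 and 17.99 CPM in A7, A8 and A12 and at 24.4, 16.4, 18.8, 20.2 and 14.5 CPM in A24, A25, A26, A29 and A31. A24 and A7 were its highest libraries too. *Hnrnpd* (log2 fold change 0.22, adjusted p = 0.487), *Zfp36l1* (0.21, adjusted p = 0.754) and *Tia1* (0.18, adjusted p = 0.683) had the largest differences of the list.

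Other cells in the tissue also varied between libraries. The counts of markers called below stand beside 0.707% of all genes in edgeR's test. The 14 skeletal muscle contractile markers summed to 3366 CPM in A7, 2242 (A8), 369 (A31) and 6.12 to 27.4 CPM in the other 5 libraries, with *Myh4* (1048 CPM in A7) the most abundant. All 14 had a negative log2 fold change, with a median of −4.68, and 11 (78.6%, against 17% of all genes) had an unadjusted p under 0.05. The groups overlapped for each of the 14, whereas they did not for 11.5% of all genes, and the control A12 summed to 7.77 CPM. *Myh7* was the 1 marker called (log2 fold change −7.86 ± 1.48, adjusted p = 0.0474), and *Myh2* (−5.88, adjusted p = 0.115) and *Tcap* (−4.88, adjusted p = 0.190) were not. The call of *Myh7* was lost with limma voom and without A7, A24, A25, A26 or A29. That call was also lost with the endothelial score, log10 total count or the muscle marker score (which holds *Myh7* itself) as a covariate. A7 was thus high in both muscle transcripts and *Egr1*, whereas A8 held muscle transcripts with *Egr1* at 1.65 CPM, and A24 was high in *Fosb* with muscle markers at 14.2 CPM in sum. The 8 endothelial markers summed to between 400 CPM (A24) and 627 CPM (A29), *Cdh5* being the most abundant; all 8 had a positive log2 fold change, 0 were called, and 2 (25%, against 17% of all genes) had an unadjusted p under 0.05, *Tie1* (log2 fold change 0.62, adjusted p = 0.147) and *Egfl7* (0.47, adjusted p = 0.117), with *Cldn5* at 0.38 (adjusted p = 0.803). Groups without overlap were seen for *Egfl7* and *Pecam1* (25%, against 11.5% of all genes). The 8 mural cell markers summed to between 326 CPM (A24) and 420 CPM (A12), *Rgs5* being the most abundant, with 0 called (*Notch3* 0.54, *Myh11* −0.50 and *Pdgfrb* 0.41 in log2 fold change). Of these 8, 1, *Myh11*, had an unadjusted p under 0.05 (12.5%, against 17% of all genes). Without A8, *Notch3* was at 0.21 and *Pdgfrb* at 0.15. Of 8 macrophage and lymphocyte markers, 7 were tested (not *Ms4a1*) and 0 called, 3 with a positive and 4 with a negative log2 fold change. They summed to 71.2 CPM in A7, 28.7 (A8), 104 (A12) and 92.8 (A24), with 51.2 to 61.0 CPM in the other 4. *Lyz2* was the most abundant (log2 fold change −0.07), and *Csf1r* was at −0.40, or −0.08 without A12. For 1 of the 7 (14.3%), *Cd3e*, the unadjusted p was under 0.05 (17% of all genes) and the groups did not overlap (11.5% of all genes). *Cd3e* was higher in *Adipo-HuR-/-* libraries (log2 fold change 1.40, adjusted p = 0.178), at 0.0760 to 0.427 CPM. The 8 fibroblast and progenitor markers summed to 461 CPM in A12, 336 (A7) and 274 (A24) against 133 to 246 CPM elsewhere, with 0 called (*Col3a1*, the most abundant, −1.09, *Col1a1* −0.42, *Lum* −0.23). Of these 8, 2 had a positive and 6 a negative log2 fold change, and 1, *Col3a1*, had an unadjusted p under 0.05 (12.5%, against 17% of all genes). Of 8 Schwann cell and nerve markers, 6 were tested (not *Th* and *Prph*) and 1 was called, *S100b*, the most abundant (log2 fold change −1.31 ± 0.19, adjusted p = 0.0250; the call was lost with each covariate, with the highest transcript and without A7, A25, A26, A29 or A31), with *Mbp* at −0.26. Of the 8 brown adipocyte markers 0 were called (*Elovl3* 0.72, *Pparg* −0.38, *Dio2* 0.31; 2 positive and 6 negative, median −0.16), with *Fabp4* the most abundant, and their sum was lowest in A25 (14432 CPM) and A7 (15302 CPM). With the muscle marker score as a covariate the log2 fold change of *Egr1* was 1.01 and that of *Fos* 0.41, and with the endothelial score that of *Nr4a1* was −0.32, with 0 of the 10 called in either. The part of the other cell types in the values of the 10 genes was not tested.

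The transcripts behind the sums were mostly the coding ones. The 10 genes had 31 transcripts in the tables, all in GENCODE M21, and how reads were divided between the transcripts of a gene is an estimate. *Jun*, *Ier2* and *Nr4a1* had a single coding transcript each, and *Junb* was assigned to coding *Junb-201* at 99.8% or more in every library. For *Fosb*, A24 had 292 counts in *Fosb-201*, with a coding part of 1014 bases, 128 in *Fosb-207* (603 bases) and 8.94 in *Fosb-206* (711 bases), and A7 had 75.3, 0 and 12.4. In A25 the only *Fosb* count was assigned to a transcript with a retained intron. For *Atf3*, *Atf3-201* held the most counts in 7 libraries, whereas *Atf3-203*, with the same coding length of 543 bases, held 122 of 145 (A8) and 248 of 1025 (A24). *Fos* counts were assigned to its coding transcript at 94.0% in A24, 80.3% in A7 and 53.1% in A25, the last on 10 counts in all. For *Dusp1*, transcripts with a retained intron took 27.3%, 27.7% and 17.9% of the counts in A7, A8 and A12, and 14.5%, 10.2%, 20.9%, 24.9% and 29.1% in A24, A25, A26, A29 and A31. The groups overlapped, and A29, with the most *Dusp1*, was within the range of the others.

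As HuR binds AU-rich RNA, the 3ʹUTR of the most abundant coding transcript of each gene was read for the pentamer ATTTA and for the longer TTATTTATT, written as DNA on the strand of the transcript. The pentamer was in 9 of the 10 3ʹUTRs, all but that of *Ier2*, against 65.9% of the 14003 tested genes with a 3ʹUTR, and 73.8% of those within the range of lengths of the 10 (485 to 2145 bases). It occurred 4 times each in *Fos*, *Jun* and *Dusp1*, 3 times in *Egr2*, *Atf3* and *Nr4a1*, 2 times in *Junb* and *Egr1*, and 1 time in *Fosb*. Per kilobase, *Dusp1* (5.80) and *Nr4a1* (5.52) had the most, and the median of the 10 was 2.89 beside 1.19 over all genes. The longer motif was in 2 of the 10, *Fos* and *Dusp1*, against 7.35% of all genes and 24.4% of the 45 other immediate early genes.

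The windows that hold the longer motif are shown because only *Fos* and *Dusp1* carry it, with TTATTTATT in capitals (GRCm38). The *Fos* window is chr12:85477103-85477131 (plus strand), and the motif within it starts at base 655 of the 3ʹUTR of 815 bases. The *Dusp1* windows are chr17:26506159-26506187 and chr17:26505870-26505898 (minus strand), and the motifs within them start at bases 103 and 392 of 690.
Fos: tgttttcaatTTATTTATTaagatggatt
Dusp1, base 103: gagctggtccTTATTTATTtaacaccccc
Dusp1, base 392: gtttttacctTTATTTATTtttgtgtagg
Neither *Fos* nor *Dusp1* differed between the groups beyond the spread of the libraries, and a match is a description, not a measured site of binding.

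Promoters from RefSeq (build GRCm38.p6) were matched for 8 of the genes, with 12 windows in all, 5 of them for *Egr2*; *Egr1* and *Ier2* had no entry. Each of the 8 counts once, with a motif in any of its windows, whereas shares over all genes are per window, so the 2 are not the same unit. In the 250 bases before the start, on either strand, the CREB motif TGACGTCA was found in 1 of the 8, *Dusp1*, and in 1.55% of 32851 windows of all genes. Its first 5 letters, TGACG, which the full motif contains on both strands, were found in 7 of the 8, all but *Jun*, against 17.8% of all windows. There were 4 copies in *Nr4a1*, 3 in *Dusp1*, 2 in *Fos* and in 3 of the 5 *Egr2* windows, and 1 in *Fosb*, *Junb* and *Atf3*. The CArG box, which SRF binds, was in *Egr2* alone of the 8 and in 1.47% of all windows, and the AP-1 motif TGANTCA was in none of the 8 and in 6.75% of all. Sites further upstream, or not matching exactly, were not looked for, so a gene without a match here may still have one. Stretches with some of these motifs are shown for genes that followed A24 and A7 and for those that did not, with the motifs in capitals.
Fos, chr12:85473812-85473841, plus strand: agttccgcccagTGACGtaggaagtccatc
Fosb, chr7:19310088-19310117, minus strand: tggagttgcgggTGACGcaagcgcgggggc
Egr2, CArG box, chr10:67537787-67537816, plus strand: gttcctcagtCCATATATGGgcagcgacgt
Nr4a1, chr15:101266794-101266823, plus strand: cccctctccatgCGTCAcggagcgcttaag
Dusp1, chr17:26508597-26508626, minus strand: ggtagggcgggTGACGTCAccgcccggtca
The motif lies 66 to 62 bases before the start in *Fos*, 60 to 56 in *Fosb*, 40 to 36 in *Nr4a1* (on the opposite strand, hence CGTCA) and 143 to 136 in *Dusp1*. *Fos*, with TGACG, was highest in A7 and A24, and *Nr4a1*, which also holds it, in A31 and A12, so the motif was shared by genes whose libraries differed.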

How the data were processed

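For every library the deposited table holds the authors' estimated counts of transcripts, not normalized; the study names CLC Genomics Workbench for read mapping, but the program that wrote these tables was not given in the sources used here. Sums of these expected counts per gene symbol were rounded to whole numbers (79.1% lay within 0.02 of one before rounding). Genes were kept with filterByExpr, normalized by TMM (factors 0.763 to 1.20) and tested with edgeR 4.0.16 (quasi-likelihood F-test; log2 CPM with a prior count of 2) in R 4.3.3, adjusting p by Benjamini-Hochberg over all 14851 of them. This replaces the study's test in that program; its threshold was kept. The mice are separate animals, and p-values measure the spread between them. DESeq2 1.42.0 and limma 3.58.1 served as alternatives, with other scalings and filters, covariates, the highest transcript of a gene and libraries left out. The tests were tried on simulated data. Motifs and figures were made in Python 3.11.15 with pandas 2.3.3 and matplotlib 3.10.9; 103723 of 105129 transcript identifiers matched GENCODE M21 without their version. No libraries were merged.

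The 10 genes and the lists were chosen with earlier results of these data known. Genes named by rule are the 10, and of each other list those called and up to 3 with the largest log2 fold change in size at a mean of at least 5 CPM. The 10 genes most like the score were named as well. The 47 named genes counted below are the 10, *Elavl1* and those of the lists, without the 10 most like the score. Further genes are named for their values or for a call in an alternative.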

Additional observations from a re-analysis of the deposited data

Results flagged for a closer look

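In the group of 5 libraries labelled *Adipo-HuR-/-*, 9 of the 47 named genes had a library far from the other 4; chance marks about 1 in 20, or about 2.4 of 47, and the same rule marked 7.31% of all 14851 genes tested. Some of the 47 were named for a large fold change. Of the 9, 4 are among the immediate early genes. A24 stood apart for *Fos* at 4.06 CPM (next highest 0.890), for *Fosb* at 24.2 CPM (next 0.360) and for *Junb* at 23.3 CPM (next 10.6). A31 stood apart for *Nr4a1* at 68.4 CPM (next 35.3). Of the other lists, *Cdkn1a* was at 161 CPM in A24 (next 72.9) and the smooth muscle gene *Myh11* lowest there at 8.06 CPM (next 12.8). *Dio2* was at 384 CPM in A31 (next 206), where the muscle genes *Myh2*, at 3.54 CPM (next 0.0568), and *Tcap*, at 6.30 CPM (next 0.0564), were also apart.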

How the results depend on the processing

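None of the 10 genes was called with any of 12 other scalings, tests, filters, covariates and sets of libraries, with any library left out, or without A7 and A24 (chosen after seeing the data); their lowest adjusted p was 0.106 (*Ier2*, endothelial score as covariate). *Jun*, *Ier2* and *Dusp1* kept their sign throughout, as did 30 of the 47 named genes. At an unadjusted p under 0.05 there were 2 of the 10 with total counts only, with the endothelial score, without A7, and without A7 and A24, 1 without A24 and without A24 and A25, and 0 otherwise. The share of all genes at that p is given for the main test only. The median log2 fold change of the 10 was −0.09 with limma voom, −0.20 with log10 total count as covariate, −0.38 without A24 and A25, 0.53 with the endothelial score, 0.48 with the muscle score, 0.44 without A7 and A24, and 0.43 with total counts only, which moved the median of all genes by 0.23.

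Calls over all genes, 105 before, were 823 with DESeq2, 655 with the likelihood ratio test, 14 with the muscle score as covariate, 167 with the endothelial score, 26 with log10 total count, 5 without A24 and A25, 16 with the highest transcript and 16 without A7 and A24. With 1 library left out they ran from 10 (A26) to 190 (A12). Members whose groups do not overlap numbered 1 without A7 and A24, and 0 to 1 (A7) with 1 library left out. No share of all genes is given for these smaller sets.

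Log2 fold changes that changed sign were, without A24 and A25, *Atf3* −1.07, *Egr2* −0.42, *Fosb* −1.64 and *Junb* −0.33. Without A7 and A24 they were *Atf3* −0.73, *Dio2* −0.0127, *Egr1* 1.95, *Fos* 0.51, *Fosb* −0.72 and *Nr4a1* −0.11. With the endothelial score they were *Dio2* −0.17, *Fos* 0.34, *Nr4a1* −0.32, *Pdgfrb* −0.0785 and *Per1* −0.12, and with the muscle score *Atf3* −0.56, *Ddit4* −0.0907, *Egr1* 1.01, *Fos* 0.41, *Tcap* 0.0189 (itself in that score) and *Zfp36l1* −0.0374. With log10 total count they were *Atf3* −0.87, *Egr2* −0.18, *Fosb* −1.39 and *Junb* −0.21, and with limma voom *Atf3* −0.63, *Egr2* −0.74, *Fosb* −1.53, *Junb* −0.0434 and *Zfp36l1* −0.0294. The highest transcript gave *Atf3* −0.00612 and *Csf1r* 0.39, and total counts *Lyz2* 0.0854.

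With 1 library left out, log2 fold changes that changed sign ran from −1.32 (A24) to 1.41 (A7) for *Fos*, −1.86 (A24) to 3.89 (A7) for *Fosb*, −0.18 (A24) to 0.85 (A7) for *Junb*, −1.56 (A8) to 2.20 (A7) for *Egr1*, −0.68 (A24) to 1.32 (A7) for *Egr2*, −0.69 (A24) to 0.85 (A12) for *Atf3* and −0.18 (A31) to 0.84 (A12) for *Nr4a1*. Of other genes, they ran from −0.0872 (A7) to 0.81 (A12) for *Dio2*, −0.0446 (A8) to 0.43 (A12) for *Zfp36l1*, −0.0480 (A8) to 1.68 (A7) for *Cldn5*, −0.43 (A8) to 0.44 (A12) for *Lyz2* and −0.57 (A8) to 0.17 (A12) for *Lum*. The cause was not tested. *Fosb* and *Egr2* had 1 count each in A25, and the highest transcript and a filter of 10 counts tested 8 of the 10. DESeq2 gave no adjusted p for *Fos* and *Fosb*.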
